A study of Mus musculus with 12 samples.

Results

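The TNF superfamily ligands of T cells were followed through the early IL-12 response of activated mouse helper T cells. The group comprised the 10 genes Tnf, Lta, Ltb, Cd40lg, Fasl, Tnfsf4, Tnfsf8, Tnfsf10, Tnfsf11 and Tnfsf14, chosen by gene symbol, out of 19752 genes tested. Each was read by 1 probe set, and all 10 were measured on all 12 Affymetrix Mouse Gene 1.0 ST arrays. The ligands and the other gene lists were chosen with earlier results of these data known, so their counts beside all genes are a description. All samples were CD4+ T cells from the spleens of male C57BL/6 mice aged 6 weeks, enriched by EasySep negative selection and stimulated through CD3 and CD28 with beads for 48 h. IL-12 (100 U/ml) was then given for 8 h to 4 samples and for 2 h to 5, while 2 samples were untreated for 2 h and 1 was labelled baseline. No 8 h group without IL-12 was analysed here, so 8 h of IL-12 and 6 further hours of culture cannot be told apart. Negative selection can leave other spleen cells behind, and each array averages over all cells of its sample. Separate animals or cultures are not recorded in the labels, so the p-values reflect variation among these samples only, and it may be technical.

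TNF superfamily ligands are mostly type II membrane proteins that assemble as trimers and bind receptors of the TNF receptor superfamily on neighbouring cells. Receptors with a death domain can start apoptosis, and those without one recruit TRAF adaptors that turn on NF-kappaB and MAP kinases. In T cells several of the ligands are induced by T cell receptor signalling through NFAT, AP-1 and NF-kappaB, and they serve B cell help, costimulation, killing and the organisation of lymphoid tissue.

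The proximal promoters of the ligands were read for letters that match the core of NFAT sites, GGAAA on either strand, since NFAT is an activation-dependent factor of T cells. RefSeq entries on the GRCm38.p6 build were matched for 8 of the 10 ligands. The stretch of 250 bases before the annotated start is printed 5′ to 3′ for the 4 ligands that fell in both comparisons of IL-12 8 h below and have an entry, and for Ltb, which passed in none. Capitals mark GGAAA or its reverse complement and, in Tnfsf14, also the AP-1 letters TGANTCA. The windows are chr17:57194182-57194431 (minus strand) for Tnfsf14, chr1:161788496-161788745 (minus) for Fasl, chr14:78308044-78308293 (minus) for Tnfsf11, chr17:35202008-35202257 (minus) for Tnf and chr17:35194257-35194506 (plus) for Ltb.
Tnfsf14: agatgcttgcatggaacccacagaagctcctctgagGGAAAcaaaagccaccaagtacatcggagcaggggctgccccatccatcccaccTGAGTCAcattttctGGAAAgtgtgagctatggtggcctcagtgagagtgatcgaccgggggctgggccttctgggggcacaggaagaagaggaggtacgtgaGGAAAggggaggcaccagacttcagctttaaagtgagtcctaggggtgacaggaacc
Fasl: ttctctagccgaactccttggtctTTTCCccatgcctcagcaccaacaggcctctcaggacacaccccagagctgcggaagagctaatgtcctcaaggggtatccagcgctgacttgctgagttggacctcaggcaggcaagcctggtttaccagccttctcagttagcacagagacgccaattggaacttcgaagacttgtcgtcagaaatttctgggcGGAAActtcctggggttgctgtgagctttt
Tnfsf11: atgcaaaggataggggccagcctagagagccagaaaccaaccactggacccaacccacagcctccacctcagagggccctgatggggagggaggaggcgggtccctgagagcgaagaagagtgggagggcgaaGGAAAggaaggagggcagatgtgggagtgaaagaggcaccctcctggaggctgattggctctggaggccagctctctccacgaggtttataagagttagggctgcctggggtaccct
Tnf: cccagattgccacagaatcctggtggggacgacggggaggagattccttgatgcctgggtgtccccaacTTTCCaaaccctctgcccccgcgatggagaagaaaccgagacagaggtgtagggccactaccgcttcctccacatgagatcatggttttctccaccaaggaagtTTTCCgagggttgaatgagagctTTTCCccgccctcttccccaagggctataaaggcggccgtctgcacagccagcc
Ltb: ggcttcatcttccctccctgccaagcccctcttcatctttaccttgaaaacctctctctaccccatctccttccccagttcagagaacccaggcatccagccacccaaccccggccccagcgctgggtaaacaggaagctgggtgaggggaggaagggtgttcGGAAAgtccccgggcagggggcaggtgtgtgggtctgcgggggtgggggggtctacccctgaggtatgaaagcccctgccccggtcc

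GGAAA on either strand was found in 8 of the 8 ligand promoters and in 55.6% of 32851 promoters of the same length; the shares were not tested against each other. TGANTCA was found in Tnfsf14 alone among the 8, 160 bases before the start, and in 6.75% of all promoters. The STAT-type letters TTCNNNGAA were present in 2 of 8, Lta and Ltb, and in 7.02% of all promoters. The NF-kappaB consensus was present in 1 of 8, Ltb, where it overlaps the GGAAA match, and in 3.90% of all promoters. Both strands were searched for every motif, and a match describes letters and not a bound site. Ltb, Tnf and Lta lie next to each other on chromosome 17 with 0 protein-coding genes between neighbours, and Tnfsf4 and Fasl are separated by 1 protein-coding gene on chromosome 1.

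Values are log2 intensities, and levels of different probe sets were not compared with each other. The titles number the samples, with 5 arrays numbered 2 to 4 and 7 numbered 5 to 8, and their meaning is not stated. The numbers 2 to 4 hold IL-12 arrays alone, and both untreated arrays and the baseline array carry numbers from 5 to 8. The median r across genes (not independent replicates) was 0.9979 between arrays that shared group and run and 0.9921 where only the group was shared. The run changed 4795 genes, 24.3% of those tested, and 8 of the 10 ligands. It was therefore a term of the model, and for the ligands values within a run are given beside the pooled ones of IL-12 8 h. The baseline array, numbered 5, correlated at 0.9926 with arrays 2 to 4 and at 0.9893 with the other arrays of 5 to 8, so its levels are given without a test.

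**Figure D1:**
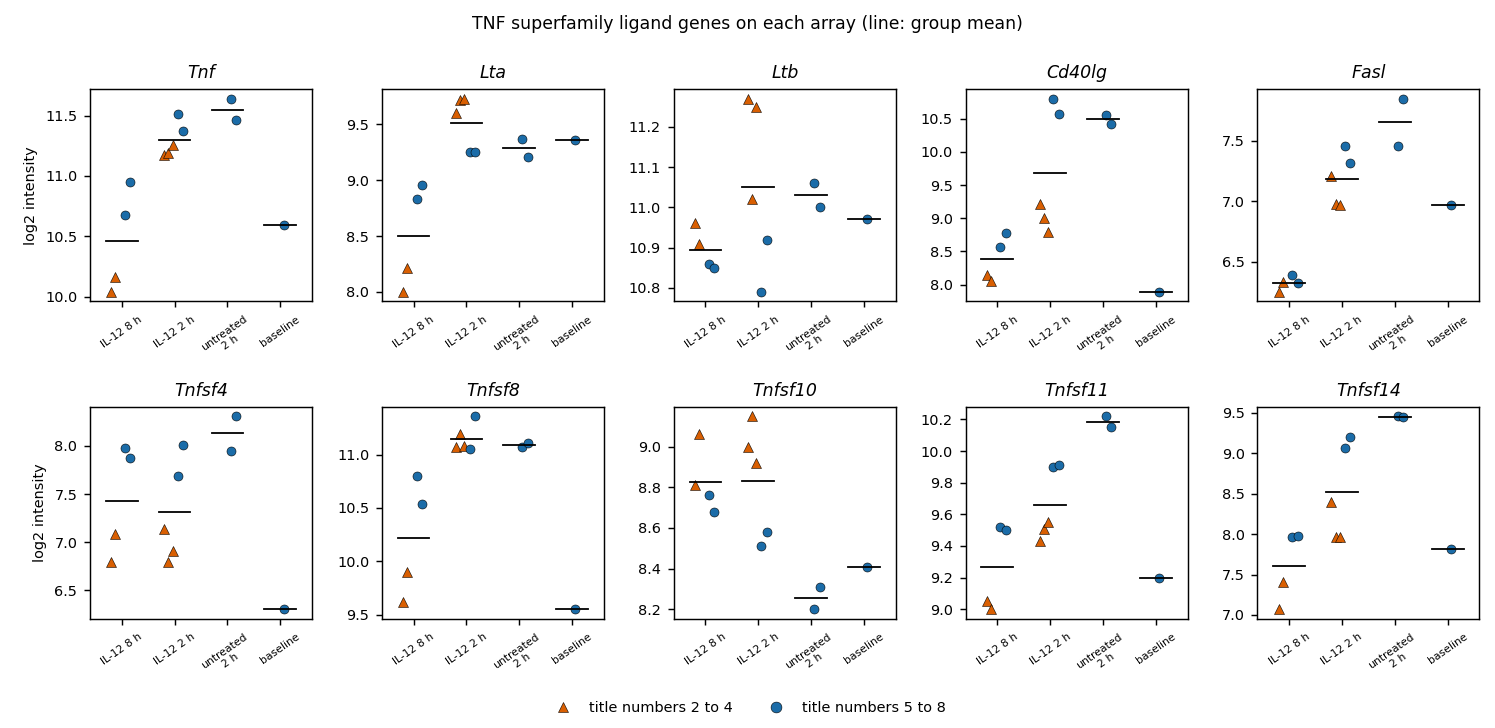
Log2 intensity of each of the 10 ligands on all 12 arrays, by group (IL-12 8 h, IL-12 2 h, untreated 2 h, baseline). Triangles are arrays numbered 2 to 4, circles arrays numbered 5 to 8, and lines group means. All 4 IL-12 8 h arrays lie below all 5 IL-12 2 h arrays for Tnf, Lta, Cd40lg, Fasl and Tnfsf8.

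After 8 h of IL-12, Tnf, Cd40lg, Fasl, Tnfsf11 and Tnfsf14 were lower than in untreated cells. In the model over both runs the falls were 1.61-fold for Tnfsf11 to 2.86-fold for Cd40lg. Within numbers 5 to 8 they were 1.59-fold for Tnfsf11 to 3.53-fold for Cd40lg. These 5 of the 10 ligands fell and 0 rose, with 2.13% of all genes called lower and 3.16% called in either direction at an adjusted p under 0.05 (limma, Benjamini-Hochberg over 19752 genes). The median log2 change of the 10 was -0.71, against -0.009 over all genes. Against IL-12 2 h, 7 of the 10 fell and 0 rose, with 6.36% of all genes called lower, 6.27% higher and 12.6% in either direction. Their median was -0.89, against -0.009 over all genes. With the title number as a block, the same 7 ligands passed, and 1246 of all genes did, against 2496 without it. Against untreated cells at the matched time of 2 h, 0 of the 10 passed, with 0.0709% of all genes called. In these bulk samples, fewer cells of a type and less RNA per cell cannot be told apart. With numbers 5 to 8 alone, 6 of the 10 passed in IL-12 8 h against untreated cells, as did 320 of all genes. The 6 were the same 5 falls and a rise of Tnfsf10. In a setting chosen after seeing the data, with means within numbers 5 to 8 and the spread taken from all arrays, 7 passed: Lta was then lower as well (2.70% of all genes were called lower and 1.56% higher). The comparisons of both IL-12 times with untreated cells share the 2 untreated arrays. The model takes the run difference to be equal in all groups, while untreated arrays carry numbers from 5 to 8 only. In the interaction test given below this equality failed for Lta, Cd40lg and Tnfsf8, so their pooled changes against untreated cells rest on it with less certainty. Without the run term the call of Cd40lg against untreated cells was lost, at a larger log2 change of -2.11 (adjusted p = 0.0603, limma). Those of Cd40lg (-1.30, adjusted p = 0.0803), Tnfsf11 (-0.39, 0.157) and Tnfsf14 (-0.92, 0.0859) against IL-12 2 h were lost as well. With numbers 5 to 6 alone, Lta (-0.36, 0.134), Tnfsf8 (-0.53, 0.088) and Tnfsf11 (-0.39, 0.0917) did not pass against IL-12 2 h.

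**Figure D2:**
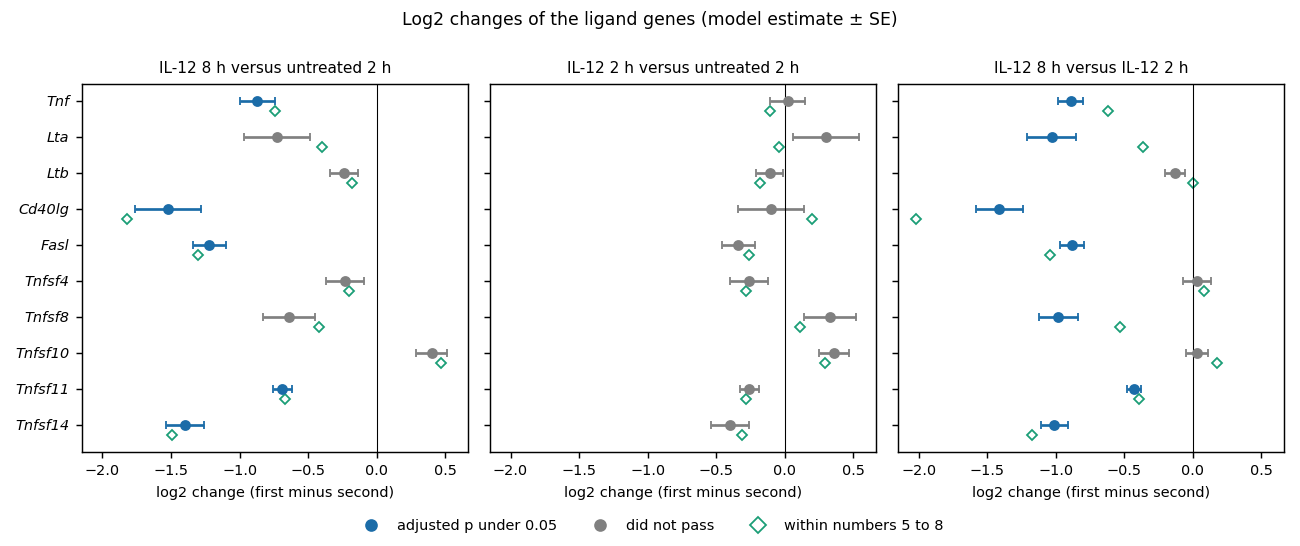
Log2 change ± SE of each ligand in IL-12 8 h minus untreated 2 h, IL-12 2 h minus untreated 2 h and IL-12 8 h minus IL-12 2 h, from the limma model. Blue marks an adjusted p under 0.05, grey the rest, and green diamonds the difference within numbers 5 to 8. Blue points are seen for 5 ligands in the first panel, 0 in the second and 7 in the third, all left of 0.

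Of the ligands of death-domain receptors, Tnf encodes tumour necrosis factor, an inflammatory cytokine that binds TNFR1 and TNFR2. Tnf had log2 intensities of 10.04, 10.16, 10.68 and 10.95 in the IL-12 8 h arrays numbered 2, 3, 5 and 6. In the IL-12 2 h arrays numbered 2, 3, 4, 5 and 6 it had 11.17, 11.19, 11.26, 11.51 and 11.37. The untreated arrays 7 and 8 had 11.64 and 11.46, and the baseline array 10.59. All 4 arrays at 8 h of IL-12 lay below every 2 h array, with or without IL-12, and the 8 h arrays numbered 2 and 3 were the lowest. Tnf changed by -0.87 ± 0.13 (SE) on the log2 scale in IL-12 8 h against untreated cells (adjusted p = 0.00179, limma), and by -0.74 within numbers 5 to 8. Against IL-12 2 h it changed by -0.89 ± 0.09, a 1.85-fold fall (adjusted p = 3.76e-05, limma), with -0.62 within numbers 5 to 8 and -1.11 within numbers 2 to 4.

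Fasl encodes Fas ligand, with which T cells and NK cells trigger apoptosis in cells that carry Fas. Fasl had 6.25, 6.33, 6.39 and 6.32 in IL-12 8 h arrays 2, 3, 5 and 6. It had 7.21, 6.98, 6.97, 7.46 and 7.32 in IL-12 2 h arrays 2, 3, 4, 5 and 6. The untreated arrays had 7.46 and 7.85, and the baseline array 6.97. The 4 arrays at 8 h were close together and below all other arrays, in both runs. They were also below the median of all genes on an array, which lay between 7.33 and 7.39, so Fasl was a dim signal there. IL-12 2 h arrays 2, 3, 4 and 6 and the baseline array were below that median as well. Fasl fell 2.33-fold against untreated cells (log2 change -1.22 ± 0.12, adjusted p = 6.74e-05, limma) and 1.85-fold against IL-12 2 h (-0.88 ± 0.09, adjusted p = 2.36e-05, limma). Within numbers 5 to 8 the change against untreated cells was -1.30. Between the IL-12 times it was -1.04 within numbers 5 to 8 and -0.76 within numbers 2 to 4. In IL-12 2 h against untreated cells its log2 change was -0.34 ± 0.12 (adjusted p = 0.892, limma), with -0.53 without untreated array 7 and -0.14 without untreated array 8.

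Tnfsf10 encodes TRAIL, which in mouse binds a single death receptor and can kill susceptible cells. Tnfsf10 had 8.81, 9.06, 8.76 and 8.68 in IL-12 8 h arrays 2, 3, 5 and 6. It had 9.0, 9.15, 8.92, 8.51 and 8.58 in IL-12 2 h arrays 2, 3, 4, 5 and 6. Untreated arrays 7 and 8 had 8.20 and 8.31, and the baseline array 8.41. Every IL-12 array lay above both untreated arrays, and the arrays of the 2 IL-12 times overlapped. Tnfsf10 was the 1 ligand whose 8 h arrays all exceeded the untreated arrays, a pattern that 11.8% of all genes had. Its log2 change was 0.40 ± 0.11 in IL-12 8 h (adjusted p = 0.0592, limma) and 0.36 ± 0.11 in IL-12 2 h (adjusted p = 0.724, limma), both against untreated cells, and neither passed. Within numbers 5 to 8 alone the change at 8 h was 0.47 and passed (adjusted p = 0.0461, limma), and the change over all arrays also passed without IL-12 8 h number 2 (0.0205) or IL-12 2 h number 3 (0.0409). Of 23 alternative settings, the change at 8 h passed in 5 and did not in 18, with an adjusted p of up to 0.437 (limma). Between the IL-12 times the difference was 0.03 ± 0.08, with a 95% interval of -0.13 to 0.20, and it was 0.18 within numbers 5 to 8 and -0.09 within numbers 2 to 4.

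Of the lymphotoxin branch, Lta encodes lymphotoxin alpha, which is secreted as a trimer that binds the TNF receptors or is held at the membrane by lymphotoxin beta. Lta had 8.00, 8.21, 8.83 and 8.96 in IL-12 8 h arrays 2, 3, 5 and 6. It had 9.60, 9.72, 9.73, 9.25 and 9.25 in IL-12 2 h arrays 2, 3, 4, 5 and 6. In untreated cells the values were 9.37 and 9.21, and on the baseline array the value was 9.36. At 8 h all arrays were below all others, and the gap was wide in numbers 2 to 4, where the 2 h arrays were high and the 8 h arrays low. Lta fell 2.04-fold against IL-12 2 h (log2 change -1.03 ± 0.18, adjusted p = 0.00157, limma). Against untreated cells its change of -0.73 ± 0.24 did not pass (adjusted p = 0.143, limma), while within numbers 5 to 8 it was -0.40. That value did not pass in the fit of these arrays alone (adjusted p = 0.109, limma) and passed with the spread taken from all arrays, a setting chosen after seeing the data (0.0316).

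Ltb encodes lymphotoxin beta, which with lymphotoxin alpha forms the membrane ligand of the lymphotoxin beta receptor in lymphoid organs. Ltb had 10.96, 10.91, 10.86 and 10.85 in IL-12 8 h arrays 2, 3, 5 and 6. It had 11.27, 11.02, 11.25, 10.79 and 10.92 in IL-12 2 h arrays 2, 3, 4, 5 and 6. The untreated arrays had 11.06 and 11.00, and the baseline array 10.97. The values of all groups lay within a narrow band, the IL-12 times overlapped, and the 8 h arrays lay just below both untreated arrays. Its log2 change in IL-12 8 h was -0.24 ± 0.10 against untreated cells (adjusted p = 0.247, limma; 95% interval -0.45 to -0.03) and -0.13 ± 0.07 against IL-12 2 h (adjusted p = 0.284, limma; 95% interval -0.28 to 0.02). Within numbers 5 to 8 Ltb changed by -0.18 against untreated cells and by 0.00 against IL-12 2 h, and within numbers 2 to 4 by -0.24 against IL-12 2 h. Ltb thus did not pass in any of the 3 comparisons, although its neighbours Tnf and Lta both fell between the IL-12 times.

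Tnfsf14 encodes LIGHT, a ligand of the herpesvirus entry mediator Tnfrsf14 and of the lymphotoxin beta receptor that costimulates T cells. Tnfsf14 had 7.07, 7.41, 7.96 and 7.98 in IL-12 8 h arrays 2, 3, 5 and 6. It had 8.40, 7.96, 7.97, 9.07 and 9.20 in IL-12 2 h arrays 2, 3, 4, 5 and 6. Untreated arrays 7 and 8 had 9.46 and 9.45, and the baseline array 7.82. Over all arrays the IL-12 times overlapped at about 7.97, with numbers 2 to 4 lower at both times, and within each run they were apart. Tnfsf14 fell 2.65-fold against untreated cells (log2 change -1.40 ± 0.14, adjusted p = 5.64e-05, limma) and 2.01-fold against IL-12 2 h (-1.01 ± 0.10, adjusted p = 2.13e-05, limma). The change against untreated cells was -1.49 within numbers 5 to 8. The fall between the IL-12 times was -1.17 within numbers 5 to 8 and -0.87 within numbers 2 to 4. In IL-12 2 h against untreated cells the change was -0.40 ± 0.14 (adjusted p = 0.863, limma).

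Of the costimulatory ligands, Cd40lg encodes CD40 ligand, the signal by which helper T cells activate B cells and dendritic cells. Cd40lg had 8.14, 8.05, 8.56 and 8.78 in IL-12 8 h arrays 2, 3, 5 and 6. It had 9.22, 9.01, 8.79, 10.80 and 10.57 in IL-12 2 h arrays 2, 3, 4, 5 and 6. In untreated cells the values were 10.56 and 10.42, and on the baseline array the value was 7.89. The IL-12 2 h arrays split by run: those numbered 5 and 6 were above both untreated arrays and those numbered 2 to 4 were far lower. All 8 h arrays were below all 2 h arrays. Cd40lg fell 2.86-fold against untreated cells (log2 change -1.52 ± 0.24, adjusted p = 0.00244, limma), and 3.53-fold within numbers 5 to 8. Against IL-12 2 h it fell 2.67-fold (-1.41 ± 0.17, adjusted p = 0.00011, limma).

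Tnfsf8 encodes CD30 ligand, which binds CD30, the product of Tnfrsf8, on activated lymphocytes. Tnfsf8 had 9.62, 9.90, 10.80 and 10.54 in IL-12 8 h arrays 2, 3, 5 and 6. It had 11.07, 11.19, 11.08, 11.05 and 11.36 in IL-12 2 h arrays 2, 3, 4, 5 and 6. The untreated arrays had 11.07 and 11.11, and the baseline array 9.55. The 2 h arrays were alike with and without IL-12, and all 8 h arrays were lower, most of all numbers 2 and 3. Tnfsf8 fell 1.97-fold against IL-12 2 h (log2 change -0.98 ± 0.14, adjusted p = 0.000341, limma). Against untreated cells its change was -0.64 ± 0.19 (adjusted p = 0.091, limma), and within numbers 5 to 8 it was -0.42. It passed in 1 of 23 alternative settings, without IL-12 8 h number 5 (0.0312), and the adjusted p reached 0.848 (limma).

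Tnfsf4 encodes OX40 ligand, which is known mainly from antigen-presenting cells and also appears on activated T cells. Tnfsf4 had 6.79, 7.08, 7.98 and 7.87 in IL-12 8 h arrays 2, 3, 5 and 6. It had 7.14, 6.79, 6.91, 7.69 and 8.01 in IL-12 2 h arrays 2, 3, 4, 5 and 6. Untreated arrays 7 and 8 had 7.95 and 8.31, and the baseline array 6.30. The IL-12 arrays parted by run, with numbers 2 to 4 low and numbers 5 and 6 high at both times, the untreated arrays were also high, and the baseline array was the lowest of all. On the arrays numbered 2 to 4 and the baseline array Tnfsf4 was dim, below the array median. Its log2 change was -0.23 ± 0.14 in IL-12 8 h against untreated cells (adjusted p = 0.512, limma; 95% interval -0.52 to 0.07). That value was -0.41 without untreated array 7 and -0.049 without untreated array 8, and it was -0.20 within numbers 5 to 8. Between the IL-12 times the change was 0.03 ± 0.10 (adjusted p = 0.918, limma; 95% interval -0.19 to 0.24), with 0.08 within numbers 5 to 8 and -0.01 within numbers 2 to 4.

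Tnfsf11 encodes RANKL, the ligand of RANK, which drives osteoclast formation and supports dendritic cell survival. Tnfsf11 had 9.05, 9.0, 9.52 and 9.50 in IL-12 8 h arrays 2, 3, 5 and 6. It had 9.43, 9.51, 9.55, 9.90 and 9.91 in IL-12 2 h arrays 2, 3, 4, 5 and 6. In untreated cells the values were 10.22 and 10.15, and on the baseline array the value was 9.20. Within each run the 8 h arrays were below the 2 h arrays, and both untreated arrays were above every IL-12 array. Tnfsf11 fell 1.61-fold against untreated cells (log2 change -0.69 ± 0.07, adjusted p = 0.000112, limma) and 1.35-fold against IL-12 2 h (-0.43 ± 0.05, adjusted p = 0.000123, limma). The change against untreated cells was -0.67 within numbers 5 to 8. That against IL-12 2 h was -0.39 within numbers 5 to 8 and -0.47 within numbers 2 to 4. In IL-12 2 h against untreated cells it changed by -0.26 ± 0.07 (adjusted p = 0.686, limma).

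Counted by overlap alone, all IL-12 8 h arrays lay below both untreated arrays for 8 of the 10 ligands, a pattern of 11.8% of all genes. All IL-12 8 h arrays lay below all IL-12 2 h arrays for 5 ligands, Tnf, Lta, Cd40lg, Fasl and Tnfsf8, a pattern of 4.23% of all genes, and for 0 ligands above them (3.98% of all genes). At 2 h, all IL-12 arrays lay below both untreated arrays for 2 ligands, Tnfsf11 and Tnfsf14 (5.33% of all genes), and above them for 1, Tnfsf10 (6.58%). In IL-12 2 h against untreated cells, 971 of 19752 genes had an unadjusted p under 0.05 (limma). That is about what this threshold passes with no change in any gene. Among them were 4 of the 10 ligands, Fasl, Tnfsf10, Tnfsf11 and Tnfsf14. For the other 6 the log2 change in IL-12 2 h against untreated cells was 0.02 for Tnf, 0.30 for Lta, -0.11 for Ltb, -0.10 for Cd40lg, -0.26 for Tnfsf4 and 0.33 for Tnfsf8 (adjusted p = 0.999 for each, limma). Within numbers 5 to 8 Tnf had -0.11, Lta -0.04 and Cd40lg 0.20, so the sign of these 3 was not fixed. The 95% interval of that comparison ran from -0.61 to 0.41 for Cd40lg and from -0.26 to 0.30 for Tnf.

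The fall between the IL-12 times was not of the same size in both runs of numbers. The difference of the 2 changes, numbers 5 to 8 minus numbers 2 to 4, was tested as an interaction over the 9 IL-12 arrays and passed for 3 of the 10 ligands, with 1.96% of all genes called. Lta changed by -0.36 in numbers 5 to 8 and by -1.59 in numbers 2 to 4, a difference of 1.23 ± 0.12 (adjusted p = 0.000355, limma). Tnfsf8 changed by -0.53 in numbers 5 to 8 and by -1.35 in numbers 2 to 4, a difference of 0.82 ± 0.17 (adjusted p = 0.0273, limma). Cd40lg went the other way, with -2.02 in numbers 5 to 8 and -0.91 in numbers 2 to 4, a difference of -1.11 ± 0.18 (adjusted p = 0.0072, limma). Leaving out any 1 of 5 arrays ended the call of Tnfsf8 (adjusted p from 0.0609 to 0.124): IL-12 2 h number 3, 4 or 5 and IL-12 8 h number 2 or 5. Tnf had a difference of 0.48 ± 0.13 (adjusted p = 0.0983, limma), and passed without IL-12 8 h number 5 (0.0306). For the other 6 ligands the adjusted p lay between 0.362 and 0.888. All 7 ligands that fell against IL-12 2 h had a negative change in both runs.

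With 1 baseline array, the step between untreated 2 h cells and baseline was described and not tested. Untreated cells exceeded the baseline array by more than 1 on the log2 scale for 4 of the 10 ligands, against 0.957% of all genes, and lay more than 1 below it for 0 (0.263% of all genes). The 4 above it were Cd40lg with a difference of 2.60 (6.07-fold), Tnfsf4 with 1.83 (3.56-fold), Tnfsf14 with 1.63 (3.10-fold) and Tnfsf8 with 1.54 (2.90-fold). For Tnfsf4 the baseline value of 6.30 was dim, below the median of 7.37 on that array. Tnfsf11 differed by 0.98, Tnf by 0.96 and Fasl by 0.68. Ltb differed by 0.06, Lta by -0.07 and Tnfsf10 by -0.15. The ligands with the wide gaps thus included Cd40lg, which fell in IL-12 8 h, and Tnfsf4, which did not pass there. Markers of other cells differed over the same step. The mean of 5 erythroid and platelet markers was 7.16 to 7.39 in untreated arrays and 8.48 on the baseline array, and that of 8 B cell markers was 6.92 to 6.97 in untreated arrays and 7.36 on the baseline array. The mean of 12 macrophage markers was 6.61 to 6.77 in untreated arrays and 6.41 on the baseline array, and 10 of them were dim on every array. Among them, Lyz2 had 9.93 and 9.64 in untreated arrays and 7.65 on the baseline array. Their part in the step was not tested. The run term of the model is given as numbers 2 to 4 minus numbers 5 to 8. It was -1.18 for Cd40lg, -0.94 for Tnfsf4, -0.89 for Tnfsf14 and -0.46 for Tnfsf8. For the rest it was -0.45 for Tnf, -0.44 for Tnfsf11, -0.21 for Fasl, -0.12 for Lta, 0.21 for Ltb and 0.36 for Tnfsf10. The baseline array correlated better with arrays 2 to 4, and the part of the run in the step was not tested.

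For each ligand that fell, the other genes with the closest profile over the 12 arrays were sought by the root mean square difference of centred log2 values, with the run effect taken off. Tnf was closest to Tnfaip3, which encodes the NF-kappaB inhibitor A20, at 0.108, and to Dennd4a at 0.122, while its own profile had a root mean square of 0.463. Lta was closest to the transcription factor gene Irf4 at 0.161 and to the cytokine gene Il13 at 0.167, against 0.524 for its own profile. Cd40lg was closest to Egr3, an early-response transcription factor gene, at 0.217 and to Spry1 at 0.268, against 0.905. Fasl was closest to the MAP kinase phosphatase gene Dusp6 at 0.157 and to the NK cell marker Klrb1c at 0.158, against 0.482. Tnfsf8 was closest to Taf4b at 0.148 and to the activation marker Cd69 at 0.152, against 0.617. Tnfsf11 was closest to Ext1 at 0.066 and Grhl1 at 0.086, against 0.304, and Tnfsf14 to Xylt1 at 0.168 and Phlda1 at 0.184, against 0.610. The points share the 12 arrays and their groups, so this is a description.

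Members of the receptor list moved in both directions. Of 11 measured, 1 rose and 0 fell in IL-12 8 h against untreated cells, where 1.04% of all genes rose and 2.13% fell. In IL-12 8 h against IL-12 2 h, 3 rose (Tnfrsf8, Tnfrsf14, Tnfrsf1a) and 4 fell (Fas, Tnfrsf4, Tnfrsf1b, Cd40), with 6.27% of all genes rising and 6.36% falling. Cd40 changed by 0.02 within numbers 5 to 8 and by -1.48 within numbers 2 to 4. Tnfrsf8, which encodes CD30, the receptor of Tnfsf8, rose by 0.50 ± 0.10 against untreated cells (adjusted p = 0.0172, limma) and by 0.46 ± 0.08 against IL-12 2 h (adjusted p = 0.00113, limma), while Tnfsf8 fell between the IL-12 times. The first of these calls was lost without untreated array 7 (adjusted p = 0.122) or 8 (0.0877) and with the macrophage covariate described below (log2 change 0.40, 0.391). Tnfrsf14, the receptor of Tnfsf14, rose by 0.30 ± 0.06 against IL-12 2 h (adjusted p = 0.00418, limma), while Tnfsf14 fell. The rise of Tnfrsf14 was 0.40 within numbers 5 to 8 and 0.21 within numbers 2 to 4, and it did not pass with the title number as a block (0.29, adjusted p = 0.0511, limma) or within either run alone (0.0924 in numbers 5 to 6, 0.0579 in numbers 2 to 4). Fas, the receptor of Fasl, fell by 0.41 on the log2 scale against IL-12 2 h (adjusted p = 0.000949, limma), as did Fasl. The change of Fas was -0.31 within numbers 5 to 8, where it did not pass alone (0.22), and -0.49 within numbers 2 to 4. Tnfrsf4, which encodes OX40, the receptor of Tnfsf4, fell by 0.55 (adjusted p = 0.00132, limma), with -0.25 within numbers 5 to 8 and -0.79 within numbers 2 to 4, while Tnfsf4 did not pass. Of 6 other measured ligands of the superfamily, Tnfsf9 fell and 0 rose in IL-12 8 h against untreated cells, and Tnfsf13b rose and Tnfsf9 fell against IL-12 2 h. These calls rested on single arrays: without untreated array 7, for example, Tnfsf9 had an adjusted p of 0.254 against untreated cells, and without IL-12 8 h number 3 Tnfsf13b had 0.0846. Of the 6, 5 were dimmer than the array median on every array.

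Intracellular mediators were counted beside the ligands and read against all genes, of which 2.13% fell and 1.04% rose in IL-12 8 h against untreated cells and 6.36% fell and 6.27% rose against IL-12 2 h. Of 13 measured genes of NF-kappaB, its activating kinases and its inhibitors, 7 fell and 0 rose in IL-12 8 h against untreated cells. Against IL-12 2 h, 8 fell and 0 rose. Nfkbid changed by -1.85, the NF-kappaB subunit gene Rel by -1.20, Tnfaip3 by -0.92 and the inhibitor gene Nfkbia by -0.75 against untreated cells, and all 4 passed. Of 10 measured TRAF adaptors and death pathway genes, Traf6 fell and 0 rose in IL-12 8 h against untreated cells. Against IL-12 2 h, Traf1, Traf2, Traf6, Birc3 (-0.53) and Cflar (-0.47) fell and Tradd rose; Birc3 and Cflar encode inhibitors of cell death. The call of Traf6 against untreated cells was lost without untreated array 7 (adjusted p = 0.0777) or 8 (0.272) and without any 1 of 8 of the 9 IL-12 arrays (0.0505 to 0.0696), and that of Traf2 without IL-12 8 h number 2 (0.0645) or 3 (0.0556). Of 14 genes induced by T cell receptor signalling, mostly transcription factor genes, 8 fell and Jun rose in IL-12 8 h against untreated cells. Against IL-12 2 h, 12 fell and 0 rose. Against untreated cells the nuclear receptor genes Nr4a3, Nr4a1 and Nr4a2 changed by -2.45, -2.27 and -1.59, and the early-response gene Egr1 by -1.02. Of 6 proteases and regulators linked to the cleavage of ligands at the membrane, 0 passed in any of the 3 comparisons. The adjusted p nearest to the threshold was 0.0664 (limma), for Rhbdf2 in IL-12 8 h against IL-12 2 h. Rhbdf2 changed by -0.34 within numbers 2 to 4, where it passed alone (0.00611), and by -0.06 within numbers 5 to 8. It also passed without IL-12 2 h number 6 (0.0124) or IL-12 8 h number 6 (0.0271), and with dim genes removed (0.0485). Of 7 genes of the Th1 and IL-12 programme, 3 rose (Ifng, Il18r1, Tbx21) and 0 fell in IL-12 8 h against untreated cells, and Ifng, which encodes interferon gamma, rose by 1.39 ± 0.20 (adjusted p = 0.00125, limma). Ifng also rose in IL-12 2 h, by 1.94 ± 0.20 (adjusted p = 0.0025, limma), at which time 0 of the 10 ligands passed. Of the 7, 0 rose between the IL-12 times, and Ifng (-0.55, adjusted p = 0.0227, limma) and Il18rap (-0.58, adjusted p = 3.77e-05) fell. This change of Ifng was -0.03 within numbers 5 to 8 and -0.98 within numbers 2 to 4, and its call was lost without IL-12 2 h number 2, 3 or 4 or IL-12 8 h number 2 or 3 (adjusted p from 0.0545 to 0.107) and with the title number as a block (0.122). At 8 h against untreated cells, the call of Il18r1 was lost without untreated array 7 (0.0845), and that of Tbx21 without untreated array 7 (0.0777) or 8 (0.258), among others.

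**Figure D3:**
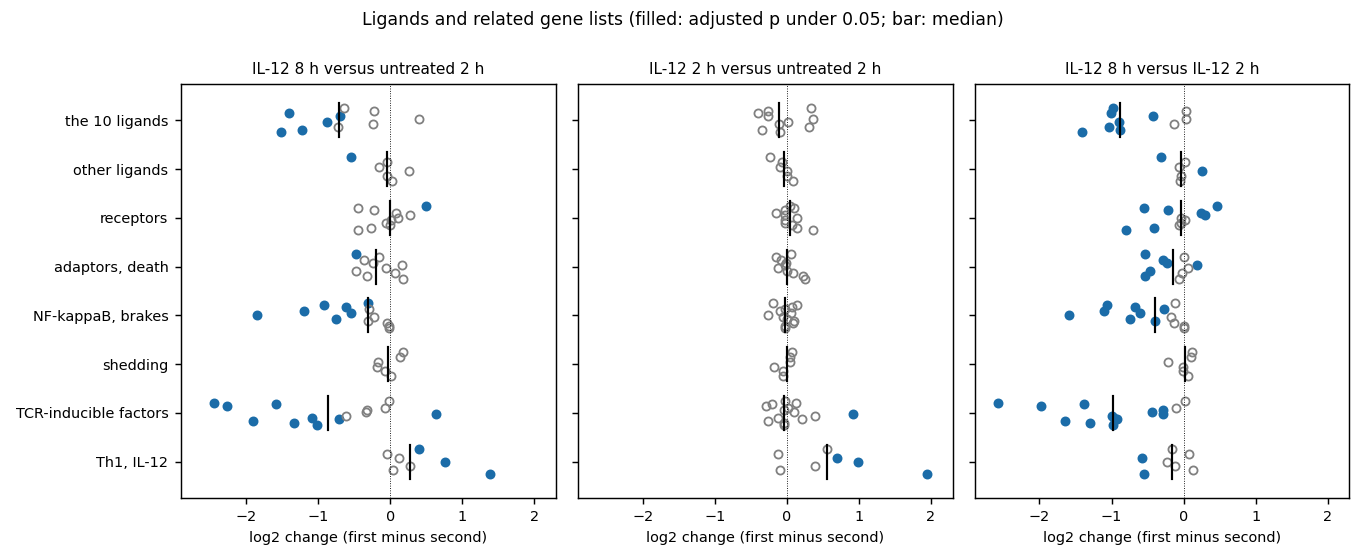
Log2 change of every measured gene of the ligands, their receptors and the mediator lists in the 3 comparisons. Filled points passed at an adjusted p under 0.05 and bars are list medians, which for the ligands lie at -0.71, -0.11 and -0.89 and for the receptors at 0.00, 0.04 and -0.03.

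Markers of the labelled cell type and of cells that selection could leave were read beside these falls. The mean log2 level of 8 measured T helper markers was 11.46 to 11.52 in IL-12 8 h, 11.32 to 11.40 in IL-12 2 h, 11.46 to 11.51 in untreated and 11.39 in baseline arrays. Of 12 measured macrophage markers, 10 were dimmer than the array median on every array and 0 passed in any of the 3 comparisons. Their mean was 6.23 to 6.59 in IL-12 8 h, 6.32 to 6.68 in IL-12 2 h and 6.61 to 6.77 in untreated arrays. Within numbers 5 to 8 it was 6.59 and 6.54 in IL-12 8 h, 6.54 and 6.68 in IL-12 2 h and 6.77 and 6.61 in untreated arrays. The lysozyme gene Lyz2 had 7.14, 7.28, 9.24 and 8.44 in IL-12 8 h arrays 2, 3, 5 and 6, 7.23, 6.66, 6.91, 8.93 and 9.41 in IL-12 2 h arrays 2, 3, 4, 5 and 6, and 9.93 and 9.64 in untreated arrays. Its log2 change in IL-12 8 h against untreated cells was -0.78 ± 0.24 (adjusted p = 0.109, limma; -0.94 within numbers 5 to 8), and that of Cd68 was -0.28 ± 0.09 (adjusted p = 0.144, limma). With the mean of the 12 markers as a covariate, 4 of the 5 falls against untreated cells still passed. All genes called there numbered 133 with the covariate and 625 without it. Tnf changed by -0.85 with it, against -0.87 without it, and did not pass (adjusted p = 0.0659, limma). Of 7 measured NK cell markers, 5 were dimmer than the array median everywhere. Klrb1c fell by 0.88 on the log2 scale in IL-12 8 h against untreated cells and by 0.67 against IL-12 2 h, and Ncr1 rose by 0.38 ± 0.06 against IL-12 2 h (adjusted p = 0.000536, limma). Eomes, the brightest of the NK markers, changed by -0.71 ± 0.19 in IL-12 8 h against untreated cells (adjusted p = 0.058, limma). Its change was -0.48 within numbers 5 to 8. In the same comparison Klrk1 changed by 0.33 and Klrd1 by 0.22, and neither passed. The NK markers' mean was 5.87 to 6.07 in IL-12 8 h, 5.98 to 6.12 in IL-12 2 h and 6.10 to 6.14 in untreated arrays, and its part in the fall of Fasl was not tested. The mean of Cd8a and Cd8b1, the CD8 T cell markers, was 7.76 to 8.08, 7.84 to 8.32 and 8.23 to 8.39 in the same groups, 0 of 2 passed in any comparison, and their part was not tested. Of 8 measured B cell markers, 8 dendritic cell markers, 8 neutrophil markers and 5 erythroid and platelet markers, 0 passed against untreated cells. Against IL-12 2 h, the B cell marker Ebf1 and the dendritic cell marker Batf3 fell, and the T helper markers Cd3d and Cd28 rose. Batf3 changed by -0.09 within numbers 5 to 8 and by -0.62 within numbers 2 to 4. Without IL-12 8 h number 2, Batf3 (adjusted p = 0.0876, limma) and Cd28 (0.0515) did not pass, and without number 3 Ebf1 (0.106) and Batf3 (0.0921) did not.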

How the data were processed

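RNA of 12 samples was hybridised to 12 Affymetrix Mouse Gene 1.0 ST arrays. The authors deposited linear intensity values of 24922 probe sets, and RMA and Affymetrix Power Tools are named per the submitters' processing notes. RMA corrects background, equalises array distributions and summarises probes. It pulls arrays to 1 distribution, so a shift of all genes would not be seen. Neither the probe annotation nor the genome build is given in the sources used here. Depth has no counterpart on arrays, and their number limits the precision.

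The log2 of each value was taken, with no further normalization. GEO's platform annotation named 1 symbol for 21425 probe sets, several for 1399 and none for 2098. Of those with 1 symbol, 21347 matched the gene table. The brightest probe set stood for a gene, which left 19752 genes. Groups came from the titles. The model over all arrays held 4 group means and the run of title numbers, 2 to 4 or 5 to 8 (limma 3.58.1, R 4.3.3, 7 residual and 6.84 prior degrees of freedom). Tests were two-sided, with Benjamini-Hochberg adjustment over all genes and a threshold of 0.05. The number run was also tested in interaction with IL-12 time over the 9 IL-12 arrays. The fit was tested on simulated data. Python 3.11.15 read the promoters and drew the plots.

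The members and the 15 other lists were chosen with earlier results of these data known. All 10 ligands were named. The rule for other genes took from each list and comparison up to 4 called genes with the smallest p, or 2 where none was called, and for each called ligand the 2 genes with the closest profile. Some genes it took from the lists are given as counts only. Members of counts of 5 or fewer outside this rule, and the NK cell markers Eomes and Klrd1, were named after their values were seen.

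Numbers 2, 3, 5 and 6 occur at both IL-12 times. Deviations from the group means correlated between same-numbered arrays at 0.434, 0.350, 0.498 and 0.337, which includes the run. With the run means also removed, r was -0.247 for numbers 2 and 3 and 0.025 for numbers 5 and 6, and 1 of 4 arrays correlated best with its own number. Within a run the 2 values of r are equal by construction, so pairing by number cannot be decided from them. Of all array pairs, 0 held identical values. Alternatives covered the run term, dim genes, a pseudocount, scaling, probe sets, the prior, a macrophage covariate, the number block, single runs, the baseline array, and each array left out.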

Additional observations from a re-analysis of the deposited data

Results flagged for a closer look

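For 3 ligands, the change of IL-12 8 h against IL-12 2 h differed between arrays numbered 5 to 8 and arrays numbered 2 to 4, by an interaction test over the 9 IL-12 arrays (limma, Benjamini-Hochberg over all genes). The difference was 1.23 for Lta (adjusted p = 0.000355), -1.11 for Cd40lg (adjusted p = 0.0072) and 0.82 for Tnfsf8 (adjusted p = 0.0273) on the log2 scale. At 8 h, numbers 2 to 4 minus numbers 5 to 8 was -0.79 for Lta, -0.57 for Cd40lg and -0.91 for Tnfsf8. At 2 h it was 0.44 for Lta, -1.68 for Cd40lg and -0.09 for Tnfsf8. What the title numbers stand for is not given in the labels, and a cause was not tested. Of 20 sets of ligand values in groups of at least 4 arrays, 0 held an outlying array. Each set held arrays of both runs, and a split by run can hide an outlying array, so this count excludes none.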

How the results depend on the processing

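Ligand counts stood at 5 called in IL-12 8 h against untreated cells, 0 in IL-12 2 h against untreated cells, 7 in IL-12 8 h against IL-12 2 h and 3 for the difference between runs. Without the run term 4 were called between the IL-12 times, with numbers 5 to 6 alone 4, and with the baseline array pooled with untreated cells and no run term 1 was called at 8 h against untreated. The last of these changed 2 choices together, and the cause was not tested for any of them. Leaving out 1 array gave 5 to 6, 0 to 0, 7 to 7 and 2 to 3. The replicate block by title number called 7 between the IL-12 times and changed no ligand call; untreated cells share no number with IL-12 samples.

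Changes that turned sign were all of genes that did not pass. In IL-12 2 h against untreated cells, Tnf was -0.25 and Ltb 0.02 without the run term, Ltb 0.039, Cd40lg 0.059 and Nfkbid 0.26 with the baseline array pooled and no run term, and Tnf -0.11, Lta -0.039 and Cd40lg 0.20 with numbers 5 to 8 alone or with means within them, a setting chosen after seeing the data. Between the IL-12 times, Tnfsf10 was -0.001 without the run term, and with numbers 2 to 4 alone Tnfsf4 was -0.012 and Tnfsf10 -0.087. Leaving out 1 array gave -0.038 to 0.10 for Tnfsf4 and -0.005 to 0.12 for Tnfsf10 between the IL-12 times, -0.072 to 0.25 for the run difference of Tnfsf4, and at 2 h -0.072 to 0.13 for Tnf and -0.035 to 0.18 for Sppl2b.

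All genes called numbered 625 in IL-12 8 h against untreated cells, and 243 without the run term, 133 with the macrophage covariate, 55 with the baseline pooled and no run term, 320 with numbers 5 to 8 alone, and 300 and 267 without untreated array 7 or 8. For IL-12 2 h against untreated cells they numbered 14, and 9 without the run term, 4 with the covariate, 1 with numbers 5 to 8 alone, and 2, 5 and 9 without untreated array 7, untreated array 8 or IL-12 2 h number 3. Between the IL-12 times they numbered 2496, and 871 without the run term, 1091 with the covariate, 1246 with the block, 370 with numbers 5 to 6 alone and 1525 without IL-12 8 h number 3. For the run difference they numbered 387, and 136 to 561 with 1 array left out. Only 2 untreated arrays and 1 baseline array limit the comparisons with them.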
